A study of Mus musculus with 4 samples.

Results

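Kinesins are motor proteins that use ATP to move along microtubules, and 43 of the 27998 gene rows in the tables of 4 mouse medulloblastomas carry a kinesin symbol (Kif or Kifc followed by a digit). The rule uses names only, and by textbook role 12 of the 43 genes act in mitosis, 12 in axonal transport, 5 in other transport, 6 in cilia or hedgehog signalling and 2 as microtubule depolymerases, while 6 were given no role. Among those 6, Kif16bos is an antisense transcript and Kif1bp a protein that binds kinesins, so neither is a motor. Kifc5b is a near copy of Kifc1, and reads could be split between the pair, so its values are uncertain.

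The tumours came from 4 littermates of the genotype Atoh1-cre:SmoM2 at postnatal day 20, 1 library of single cells per mouse. In these mice Cre under the Atoh1 promoter switches on SmoM2, a constitutively active form of the hedgehog receptor component Smo, in granule neuron precursors of the cerebellum, which gives medulloblastoma of the Sonic hedgehog type. No normal cerebellum was among the samples, so all comparisons are between classes of cells within the same 4 tumours. Per the labels, tissue was digested with Accutase for 20 minutes, dead cells were sorted out with 7-AAD, 10000 cells went into each 10x Chromium 3' reaction, and 2 rounds of sequencing were run for mouse 1.

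Mitotic kinesins build the bipolar spindle, move chromosomes and assemble the midzone where daughter cells separate, and dividing cells make most of them anew before each mitosis. Transport kinesins carry vesicles, mitochondria and other cargo from the cell body towards the tips of axons, some of them in nearly every cell type and others mainly in neurons. In the developing cerebellum, granule neuron precursors divide under hedgehog signalling, then leave the cell cycle and grow axons.

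Promoters of mitotic genes often carry the cell cycle genes homology region (CHR), the element through which repressor and activator complexes set late cell cycle expression, with CCAAT boxes close by. RefSeq promoters (GRCm38.p6, 250 bases before to 50 bases after the annotated start) were at hand for 34 of the 43 genes, 11 of the mitotic and 8 of the axonal transport group. Both strands were searched for CHR letters, TTTGAA or TTCGAA, and for CCAAT on either strand of the gene. TTCGAA reads the same on both strands, and a CHR and a CCAAT box can share end letters. CHR letters stood in 10 of 11 mitotic promoters (90.9%) and in 0 of 8 axonal transport promoters, against 19.4% of all 27025 promoters in the table. CCAAT stood in 7 of 11 mitotic promoters (63.6%) and 3 of 8 axonal transport promoters (37.5%), against 37.9% of all. Within 25 bases of the start, a window chosen after the positions were seen, CHR letters stood in 8 of 11 mitotic promoters, 0 of 8 axonal transport promoters and 2.82% of all. A match is a description of letters and not a shown binding site. Of the 8 mitotic promoters with CHR letters near the start, 6 are shown as examples of where these letters lie (Kifc1 and Kif18b are not printed), and Kif5c and Kif1a stand for the transport group. Each runs from 70 bases before to 30 bases after the start, with CHR letters and CCAAT letters (ATTGG where they lie on the other strand) in capitals.
Kif4 (chrX:100625995-100626094, + strand): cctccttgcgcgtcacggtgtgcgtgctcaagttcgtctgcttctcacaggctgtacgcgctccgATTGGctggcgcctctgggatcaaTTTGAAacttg
Kif11 (chr19:37376312-37376411, + strand): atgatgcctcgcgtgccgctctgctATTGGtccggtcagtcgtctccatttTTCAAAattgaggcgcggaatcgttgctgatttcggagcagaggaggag
Kif15 (chr9:122951011-122951110, + strand): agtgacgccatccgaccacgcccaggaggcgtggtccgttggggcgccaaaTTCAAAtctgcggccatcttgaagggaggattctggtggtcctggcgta
Kif20b (chr19:34922288-34922387, + strand): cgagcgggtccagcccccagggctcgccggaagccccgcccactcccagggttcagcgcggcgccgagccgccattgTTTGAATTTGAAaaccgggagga
Kif22 (chr7:127042391-127042490, - strand): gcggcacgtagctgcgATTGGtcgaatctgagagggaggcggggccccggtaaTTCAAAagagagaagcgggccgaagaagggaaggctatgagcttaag
Kif23 (chr9:61946770-61946869, - strand): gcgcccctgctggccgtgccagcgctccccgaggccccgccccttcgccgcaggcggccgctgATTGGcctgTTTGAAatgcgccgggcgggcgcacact
Kif5c (chr2:49619216-49619315, + strand): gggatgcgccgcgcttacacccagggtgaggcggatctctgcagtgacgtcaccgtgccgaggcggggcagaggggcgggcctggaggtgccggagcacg
Kif1a (chr1:93101845-93101944, - strand): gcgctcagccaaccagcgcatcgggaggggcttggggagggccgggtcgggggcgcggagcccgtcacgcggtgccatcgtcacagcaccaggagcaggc
In Kif20b the CHR letters occur 2 times in a row. Kif18a was the mitotic gene whose promoter held neither motif.

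**Figure D1:**
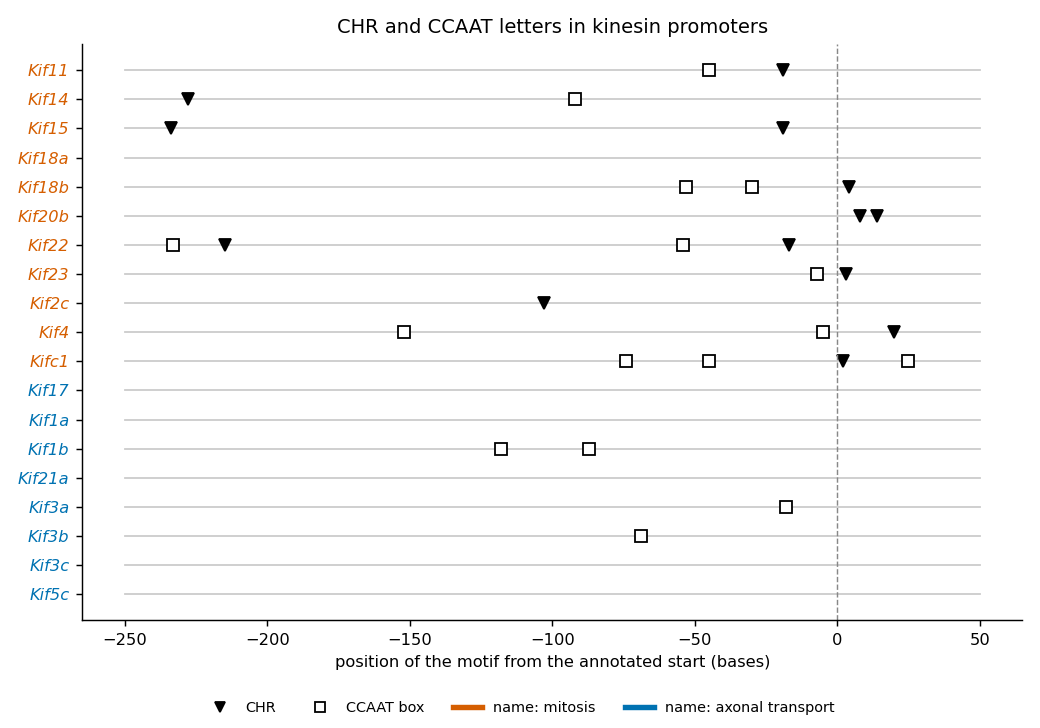
Positions of CHR letters (filled triangles) and CCAAT boxes (open squares) on either strand, in bases from the annotated start (dashed line), for 11 mitotic and 8 axonal transport kinesin promoters, 1 row per gene. CHR letters appear in 10 mitotic rows, 8 of them within 25 bases of the start, and in 0 axonal transport rows.

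After filters for at least 500 detected genes and at most 10% mitochondrial transcripts, 4122 cells were analysed, with a median of 1727 to 2564 unique molecular identifiers (UMIs, counted transcript molecules) per cell in a mouse. Cells were clustered without the kinesin genes, their listed partners, phase genes, mitochondrial and ribosomal genes. Clusters of other cell types were named from at least 3 markers, and the remaining ones were taken as the granule lineage. Within that lineage 588 differentiating granule-like cells in 2 clusters stood out by Neurod1, Stmn2 and Tubb3, and the other 3118 cells were called progenitor-like by default. Cntn2 was among the top genes of the larger differentiating cluster only. Progenitor markers did not separate these classes, at 20.7 to 34.3 UMIs per 10000 in the differentiating clusters and 17.5 to 34.0 in the progenitor-like ones. The smaller classes were 220 astroglia-like cells in 3 clusters, 152 oligodendrocyte-lineage-like cells (115 precursor-like and 37 oligodendrocyte-like, 34 of these from mouse 4), 39 myeloid-like and 5 choroid-plexus-like cells. Progenitor-like clusters were uneven over mice, with 306 of 521 cells of 1 cluster from mouse 3 and 353 of 505 of another from mouse 1. Phases were called from 43 S and 42 G2M genes with no kinesin or partner among them, which gave 550 G1, 1043 S and 1525 G2M progenitor-like cells, and 21.8% of these cells lay within 0.05 score units of a phase boundary. The phases were also spread unevenly over the progenitor-like clusters: 1 cluster held 549 of the G2M cells and 1 of the G1 cells, and another held 438 G2M and 46 G1 cells. The second of these had a median of 1092 UMIs per cell and 15.4 UMIs of the nuclear RNA Malat1 per 10000, against 136 to 170 in the other progenitor-like clusters. The smaller differentiating cluster, of 132 cells, was also low in Malat1, at 22.0 UMIs per 10000 against 192 in the larger one of 456 cells. Its median was 1336 UMIs per cell, against 2336 in the larger one. Ccnb1, the cyclin that starts mitosis, served as a check outside the score, at 24.2 ± 9.90 counts per 1000000 UMIs (CPM) in G1, 41.8 ± 7.21 in S and 409 ± 69.2 CPM in G2M cells (SD, n = 4 mice).

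The 43 kinesin genes drew 16768 UMIs over all barcodes. Over 100 UMIs were counted for 24 genes, 11 to 100 for 8, 1 to 10 for 9, and 0 for Kif12 and Kif2b. Summed over the 12 mitotic genes, the level was 61.1, 43.3, 73.0 and 73.2 CPM in G1, 222, 228, 181 and 249 CPM in S, and 842, 1016, 718 and 946 CPM in G2M progenitor-like cells of mice 1 to 4. No mouse of a phase overlapped with any mouse of another phase. G2M over G1, the sum differed by 15 ± 5.90-fold (SD, n = 4 mice, 9.84 to 23.5). The 12 axonal transport genes summed to 904 ± 93.4 CPM in G1, 846 ± 82.3 in S and 852 ± 40.2 CPM in G2M cells, and mice of the 3 phases overlapped.

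**Figure D2:**
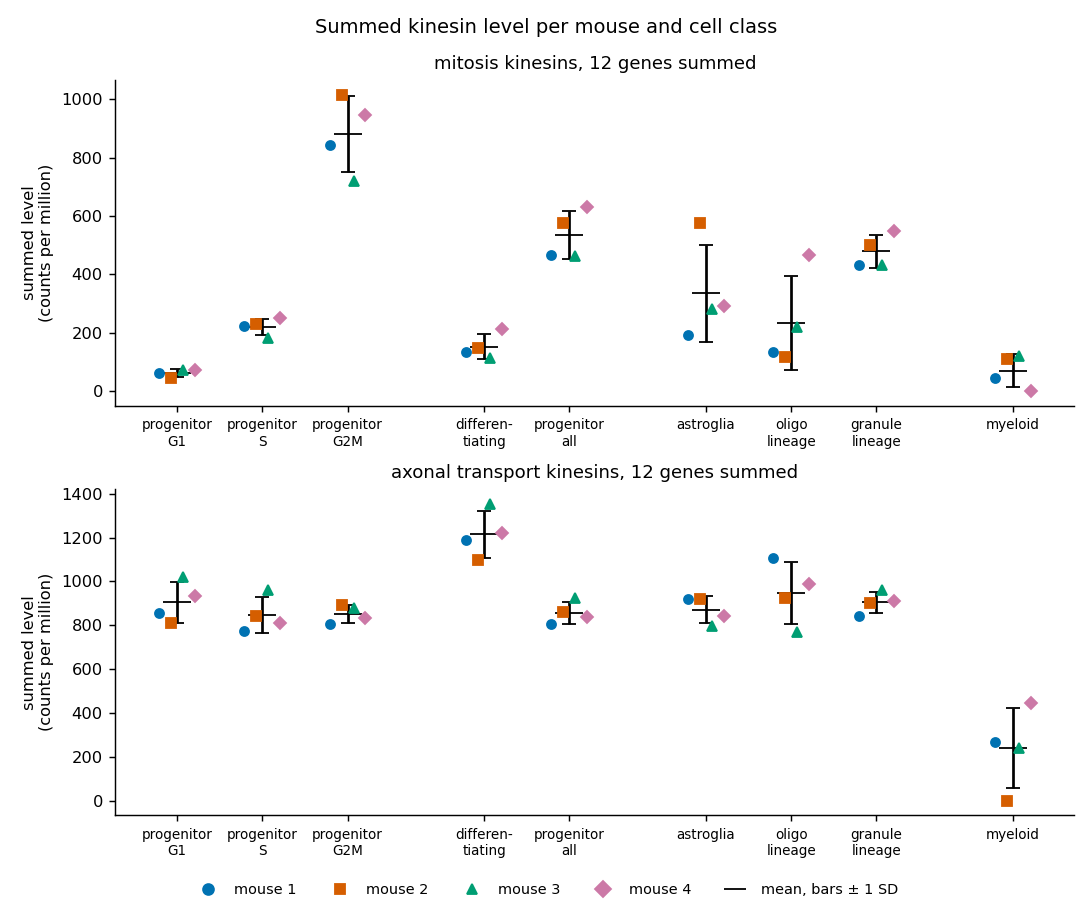
Level summed over the 12 mitotic genes (upper panel) and the 12 axonal transport genes (lower panel) in CPM, for each cell class along the x axis; each symbol is 1 of 4 mice, dashes are means and bars ± 1 SD. Among the classes plotted, which leave out the phases of differentiating cells, the mitotic sum is highest in G2M progenitor-like cells (718 to 1016 CPM) and the axonal transport sum in differentiating cells (1097 to 1353 CPM).

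G2M cells were compared with G1 cells within the progenitor-like class to see which kinesin transcripts move with the cell cycle. The mitotic genes were higher in G2M cells, and of the transport genes Kif1b was called lower. Kif11, the motor that pushes spindle poles apart, was at 88.5, 121, 103 and 118 CPM in G2M cells and at 9.26, 3.33, 13.3 and 12.2 CPM in G1 cells of mice 1 to 4. Every mouse was higher in G2M, and the groups did not overlap. The difference was 3.54 ± 0.28 log2 units (SE, adjusted p = 9.94e-13, edgeR's quasi-likelihood test on counts summed per mouse, paired by mouse, adjusted by Benjamini-Hochberg over the genes that defined neither clusters nor phases). The SE is worked back from the test and is not a spread over mice. Kif4, a chromokinesin that also organises the midzone, was at 56.7, 55.1, 71.5 and 67.6 CPM in G2M cells and at 3.71, 13.3, 0 and 8.14 CPM in G1 cells. Its groups did not overlap either, and the change was 3.20 ± 0.36 log2 units (adjusted p = 8.60e-09 by edgeR's quasi-likelihood test).

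Kif20a, which brings the Aurkb complex to the midzone, was at 69.6, 103, 26.4 and 83.5 CPM in G2M cells and at 9.26, 6.66, 0 and 0 CPM in G1 cells of mice 1 to 4. Mouse 3 stood lowest in G2M, yet above every G1 value. The difference was 3.72 ± 0.36 log2 units (adjusted p = 1.53e-10, edgeR's quasi-likelihood test). Without mouse 3, Kif20a kept its call, as it did in each of its 14 alternatives, with log2 values of 3.36 to 4.73.

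Of the 43 genes, 19 had enough counts to be tested after edgeR's filter on low counts, and 12 of the 19 were called, against 15.7% of all 5861 genes tested (8.91% higher and 6.77% lower). The 11 mitotic genes tested, each higher in 4 of 4 mice, could pass that filter through G2M alone and so had to differ. Without the filter all 12 mitotic genes could be tested: 12 of 12 were higher, 0 of 12 axonal transport genes were called in either direction by edgeR, and 7.60% of 12534 genes were called, 5.73% higher and 1.87% lower. Phase and cluster cannot be fully told apart here. Without cells low in Malat1 (under 30 UMIs per 10000) the filtered test called 11 genes higher and 1 lower. That count is tied to the same filter and does not separate phase from cluster. The cluster with 549 G2M cells and 1 G1 cell was not low in Malat1, at 146 UMIs per 10000. The median of the 12 mitotic genes was 3.89 log2 units (3.83 with Kif18b at its bound), that of the 10 axonal transport genes with over 3 UMIs in a class -0.03, and that of all genes 0.05. At an unadjusted p under 0.05, edgeR gave 2 axonal transport genes higher and 1 lower without the filter. After adjustment DESeq2 called 0 of the 6 that passed the filter, with 0 higher and 1 lower at an unadjusted p under 0.05.

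The spindle and chromosome motors rose together. Kif22, which pushes chromosome arms towards the spindle equator, averaged 166 ± 31.3 CPM in G2M cells and 12.6 ± 6.94 CPM in G1 cells (SD, n = 4 mice), a change of 3.77 ± 0.25 log2 units. Kif2c, which takes microtubules apart at kinetochores to correct their attachment, differed by 4.74 ± 0.37 and Kif15, a partner of Kif11 in keeping the spindle bipolar, by 3.67 ± 0.41 log2 units. Kifc1, which focuses the spindle poles, was higher by 3.59 ± 0.40 log2 units. Kif18a, which damps the swings of chromosomes at the spindle equator, had 145 UMIs in G2M cells against 1 UMI in G1 cells, a ratio of 44.3 per UMI counted (exact 95% interval 7.82 to 1761, counting error only). Kif18b, which trims astral microtubules, had 59 UMIs in G2M cells against 0 UMIs in G1 cells, at least 6.01-fold higher at a floor of 3 UMIs over the group.

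The motors of cell separation showed the same direction. Kif23, the motor subunit of centralspindlin, averaged 99.8 ± 17.0 CPM in G2M cells and 8.86 ± 8.23 CPM in G1 cells (SD, n = 4 mice), and Kif20b, which acts at the end of cytokinesis, 111 ± 12.4 CPM in G2M cells and 6.19 ± 1.46 CPM in G1 cells. Their changes were 3.84 ± 0.32 and 4.03 ± 0.30 log2 units. Kif14, which works with Cit at the midbody, had 77 UMIs in G2M cells against 1 UMI in G1 cells, a ratio of 23.5 (exact 95% interval 4.10 to 941). Of 14 listed partners of these motors 13 were higher, from Racgap1 (2.88), the second subunit of centralspindlin, to Hmmr (5.90 log2 units), a spindle assembly factor, and Numa1 was not called (0.25, adjusted p = 0.477, edgeR's quasi-likelihood test). Of 16 listed partners of transport, 11 were tested and 0 were called by edgeR, with 1 higher and 1 lower at an unadjusted p under 0.05, and DESeq2 called 0.

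Among the transport genes Kif1b, a carrier of mitochondria and synaptic vesicle precursors, was the 1 gene called lower. It was at 88.5, 90.3, 126 and 88.5 CPM in G2M cells and at 115, 123, 166 and 151 CPM in G1 cells of mice 1 to 4. It was lower in 4 of 4 mice, although the groups overlapped. The change was -0.47 ± 0.14 log2 units (adjusted p = 0.0162, edgeR's quasi-likelihood test), and the call was lost in 8 of 14 alternatives. Kif5c, a heavy chain of kinesin-1 found mainly in neurons, was at 143, 165, 157 and 169 CPM in G2M cells and at 104, 137, 206 and 159 CPM in G1 cells. The groups overlapped, and the difference of 0.20 ± 0.13 log2 units did not pass the test (adjusted p = 0.356, edgeR's quasi-likelihood test). Kif5b, the heavy chain of most tissues, averaged 320 ± 12.3 CPM in G2M cells and 295 ± 38.0 CPM in G1 cells (SD, n = 4 mice) and was not called.

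**Figure D3:**
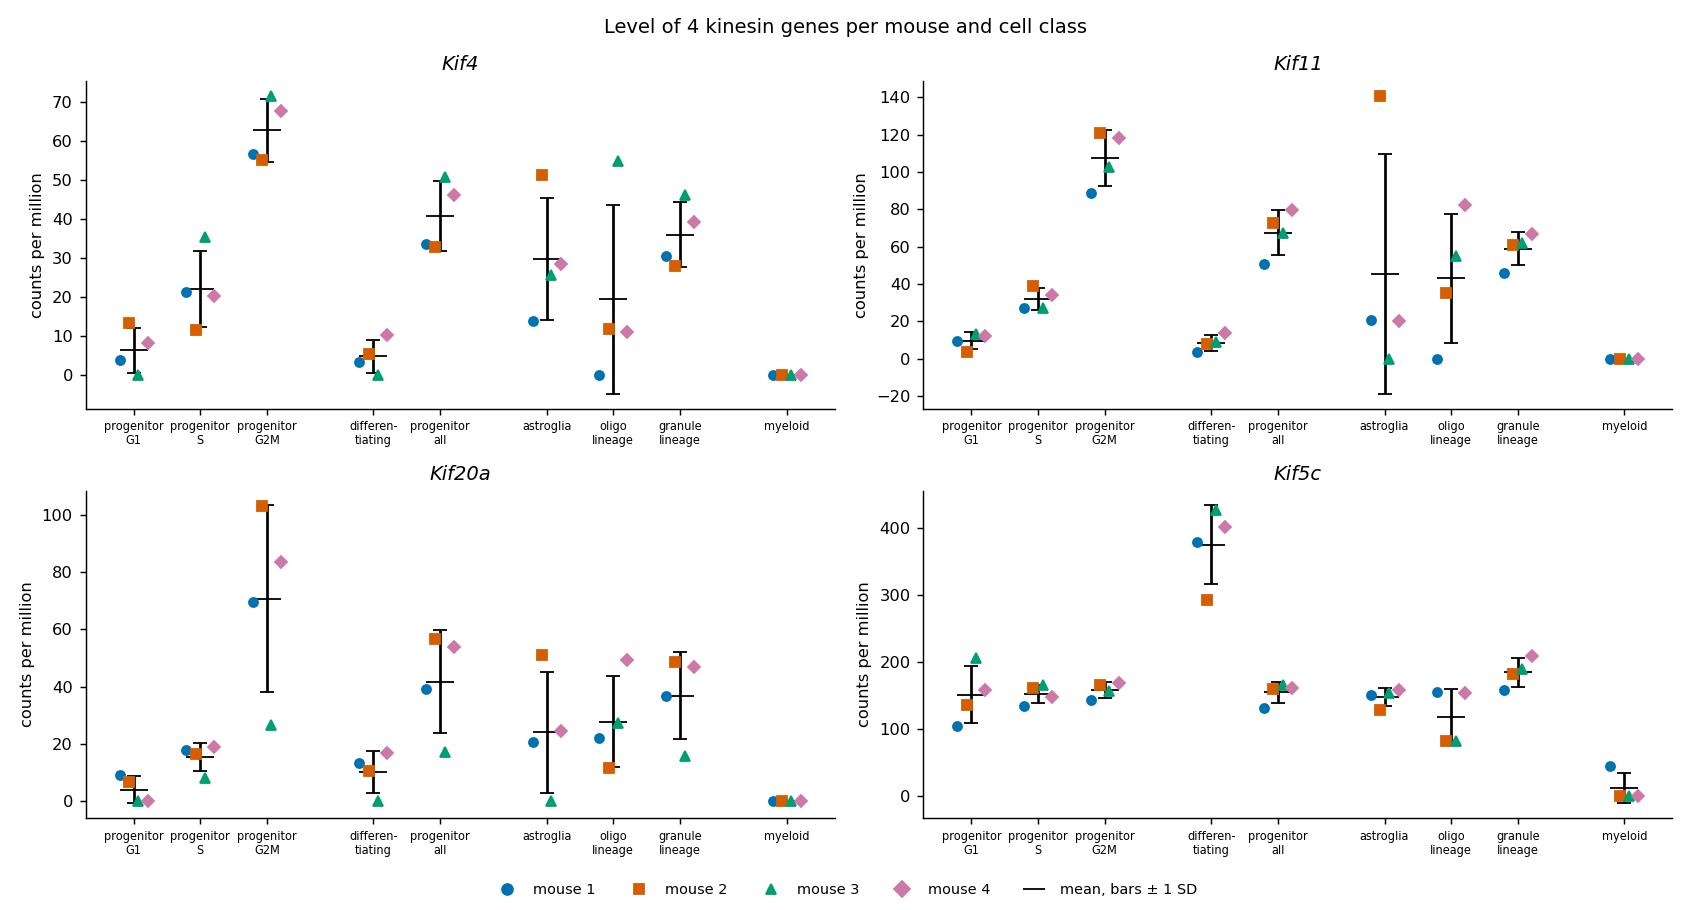
CPM of Kif4, Kif11, Kif20a and Kif5c (1 panel each, own y axis) by cell class; symbols are the 4 mice, dashes are means and bars ± 1 SD. Kif4, Kif11 and Kif20a climb through G1, S and G2M in the progenitor-like means, and among the classes plotted Kif5c is highest in differentiating cells (292 to 428 CPM).

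S cells were compared with G1 cells, and G2M cells with S cells, to place the change within the cycle. Kif11 was already higher in S, at 26.9, 39.1, 27.1 and 33.9 CPM in S cells against 9.26, 3.33, 13.3 and 12.2 CPM in G1 cells of mice 1 to 4. No S value overlapped with a G1 value, and the change was 1.75 ± 0.41 log2 units (adjusted p = 0.00034, edgeR's quasi-likelihood test; 0.12 by DESeq2). Kif3a, a kinesin-2 motor that also builds cilia, was at 87.5, 97.8, 86.7 and 96.8 CPM in S cells and at 143, 107, 113 and 138 CPM in G1 cells. It was lower in 4 of 4 mice, without overlap, by -0.51 ± 0.16 log2 units (adjusted p = 0.0134, edgeR's quasi-likelihood test), and lost its call in 8 of 14 alternatives. These were 2 of 9 genes tested, 1 in each direction, against 13.1% of 5302 genes (6.75% higher and 6.32% lower). Kif11 could pass the filter on low counts through S cells alone. Without the filter on low counts 5 of 12 mitotic genes were higher in S (Kif11, Kif18a, Kif20b, Kif22 and Kif4), 0 of 12 axonal transport genes were called by edgeR (1 lower at an unadjusted p under 0.05), and 4.82% of 12271 genes were called, 3.38% higher and 1.43% lower. DESeq2 called 0 of the 9 genes tested, with 1 higher and 0 lower at an unadjusted p under 0.05.

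From S to G2M the mitotic genes rose again. Of 21 genes tested 12 were higher and 0 lower, against 5.49% higher and 3.80% lower among 6706 genes (9.29% in all). Without the filter 12 of 12 mitotic genes were higher, against 3.40% higher and 1.50% lower among 12797 genes (4.90% in all). The changes of the tested mitotic genes ran from 1.62 ± 0.20 log2 units for Kif4 to 2.94 ± 0.21 for Kif2c. These genes could pass the filter through G2M alone. Kif2c averaged 83.7 ± 25.8 CPM in G2M cells and 10.6 ± 7.05 CPM in S cells, and Kif11 107 ± 14.9 CPM in G2M cells and 31.8 ± 5.89 CPM in S cells (SD, n = 4 mice). The 12th call was Kif1bp, the kinesin binding protein, at 0.67 ± 0.23 log2 units (adjusted p = 0.0456, edgeR's quasi-likelihood test), which was lost in 12 of 14 alternatives. Of the axonal transport genes 0 of 8 were called by edgeR, with 1 higher at an unadjusted p under 0.05 and 0 called by DESeq2.

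In cells thinned to 1000 UMIs each, a mitotic kinesin UMI was found in 4.71% ± 2.41 of G1, 16.2% ± 3.41 of S and 44.3% ± 3.49 of G2M progenitor-like cells (SD, n = 4 mice); cells under 1000 UMIs were left out, which kept 509, 904 and 1247 cells. Without thinning the shares were 13.2% ± 4.56, 32.4% ± 7.76 and 58.9% ± 4.98. In thinned myeloid-like cells, which should hold few mitotic transcripts, 2 of 29 cells had such a UMI, 6.90% (exact Clopper-Pearson 95% interval 0.846 to 22.8%). With so few myeloid-like cells this interval also holds the S share, so at this depth it sets neither the G1 nor the S share apart from background. At 2000 UMIs per cell 0 of 11 myeloid-like cells had such a UMI (0 to 28.5%), against 11.6% ± 3.78 of G1 and 31.1% ± 3.12 of S cells. The mitotic sum was 44.8, 111, 120 and 0 CPM in myeloid-like cells of mice 1 to 4, overlapping with G1 and below each S value. These differences were not tested. At 1000 UMIs an axonal transport UMI was found in 61.5% ± 5.69 of G1, 55.2% ± 4.98 of S and 57.5% ± 1.94 of G2M cells. It was found in 7 of 29 myeloid-like cells, 24.1% (10.3 to 43.5%). Median depths before thinning were 2160, 2476 and 2516 UMIs in the kept G1, S and G2M cells and 1521 in the myeloid-like cells.

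How the family differs with differentiation in the tumour lineage was examined by setting differentiating against progenitor-like cells. Both classes held cells called S and G2M. Kif5c and 4 further axonal transport genes were higher in differentiating cells and 9 mitotic genes were lower. Kif5c was at 379, 292, 428 and 403 CPM in differentiating cells and at 132, 159, 166 and 161 CPM in progenitor-like cells of mice 1 to 4. Each differentiating value lay above each progenitor-like value. The change was 1.26 ± 0.09 log2 units (adjusted p = 2.05e-21, edgeR's quasi-likelihood test), and it was called in all 12 of its alternatives, at 1.18 to 1.40 log2 units.

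Kif5a, a kinesin-1 heavy chain found in neurons, was at 33.3, 37.2, 43.6 and 40.8 CPM in differentiating cells and at 12.3, 17.5, 12.9 and 18.1 CPM in progenitor-like cells. Kif1a, a carrier of synaptic vesicle precursors, was at 103, 104, 105 and 112 CPM in differentiating cells and at 55.9, 54.3, 70.5 and 62.9 CPM in progenitor-like cells. Both were free of overlap, with changes of 1.25 ± 0.27 and 0.83 ± 0.16 log2 units. Kif21b, a neuronal motor that also restrains microtubule growth, was at 16.6, 15.9, 26.2 and 17.0 CPM in differentiating cells and at 5.78, 9.05, 7.74 and 4.94 CPM in progenitor-like cells. It did not overlap either and changed by 1.41 ± 0.40 log2 units (adjusted p = 0.00662, edgeR's quasi-likelihood test), with the call lost in 2 of 10 alternatives. Kif1b was at 113, 181, 201 and 161 CPM in differentiating cells and at 99.4, 109, 126 and 96.7 CPM in progenitor-like cells. It was higher in 4 of 4 mice by 0.61 ± 0.13 log2 units, with mouse 1 of the differentiating class inside the progenitor-like range.

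The other transport genes did not pass the test. Kif5b was at -0.16 ± 0.09 log2 units, with 285 ± 23.1 CPM in differentiating cells and 318 ± 25.5 CPM in progenitor-like cells (SD, n = 4 mice). The kinesin-2 genes Kif3a, Kif3b and Kif3c were at 0.10 ± 0.14, 0.06 ± 0.38 and 0.88 ± 0.39 and Kif21a, which halts microtubule growth at the cell edge, at 0.24 ± 0.17 log2 units. Within the kinesin-1 family, then, the call was made for Kif5a and Kif5c and not for Kif5b; the differences between these genes were not tested.

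The mitotic genes fell by 1.46 to 2.90 log2 units where called. Kif11 was at 3.33, 7.97, 8.73 and 13.6 CPM in differentiating cells and at 50.9, 72.4, 67.1 and 79.8 CPM in progenitor-like cells, a change of -2.90 ± 0.30 log2 units (adjusted p = 8.91e-14, edgeR's quasi-likelihood test). Kif4 was at 3.33, 5.31, 0 and 10.2 CPM in differentiating cells and at 33.5, 32.8, 50.7 and 46.1 CPM in progenitor-like cells, a change of -2.61 ± 0.37. Kif20a was at 13.3, 10.6, 0 and 17.0 CPM in differentiating cells and at 39.3, 56.6, 17.2 and 53.9 CPM in progenitor-like cells, a change of -1.89 ± 0.30. In each of these genes the groups did not overlap, and for Kif20a the gap was narrow, from 17.0 to 17.2 CPM. Kif18a was not called, at -0.45 ± 0.33 log2 units with 13.4 ± 9.51 CPM in differentiating cells and 22.8 ± 3.77 CPM in progenitor-like cells (SD, n = 4 mice). Of 14 mitotic partners 13 were lower (Hmmr at -3.37 to Racgap1 at -1.11 log2 units) and Numa1 was not called, while 5 of 15 tested transport partners were higher: the microtubule-associated proteins Map1b (1.32) and Mapt (0.90), the kinesin light chain Klc1 (0.92), and the cargo adaptors Mapk8ip1 (0.82) and Trak1 (0.80).

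In this comparison 22 genes were tested, 5 were higher and 9 lower, against 8.58% higher and 8.45% lower among 6876 genes (17.0% in all). Kif4, Kif11, Kif15 and Kif20a, among other mitotic genes, could not pass the filter on low counts without the progenitor-like cells. Kif21b could not pass it without the differentiating cells. The filtered counts therefore hold genes tied to the class where they are high. Fitted without the filter, Kif4 changed by -2.69 ± 0.37, Kif11 by -2.97 ± 0.30, Kif15 by -1.53 ± 0.32 and Kif20a by -1.96 ± 0.30 log2 units. Kif21b then changed by 1.33 ± 0.41 log2 units. Without the filter on low counts 10 of 12 mitotic genes were lower (Kif14 was added) and the same 5 of 12 axonal transport genes were higher, against 6.01% lower and 3.20% higher among 13237 genes (9.21% in all). The medians were then -1.76 log2 units for the mitotic genes, 0.75 for the 11 axonal transport genes with over 3 UMIs in a class and -0.15 for all genes. The share of cells with a mitotic UMI at 1000 UMIs per cell was 12.3% ± 2.51 in differentiating cells (within the interval of the myeloid-like cells) and 27.6% ± 3.35 in progenitor-like cells, and that with an axonal transport UMI 66.3% ± 7.93 in differentiating cells and 57.1% ± 1.78 in progenitor-like cells (SD, n = 4 mice).

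**Figure D4:**
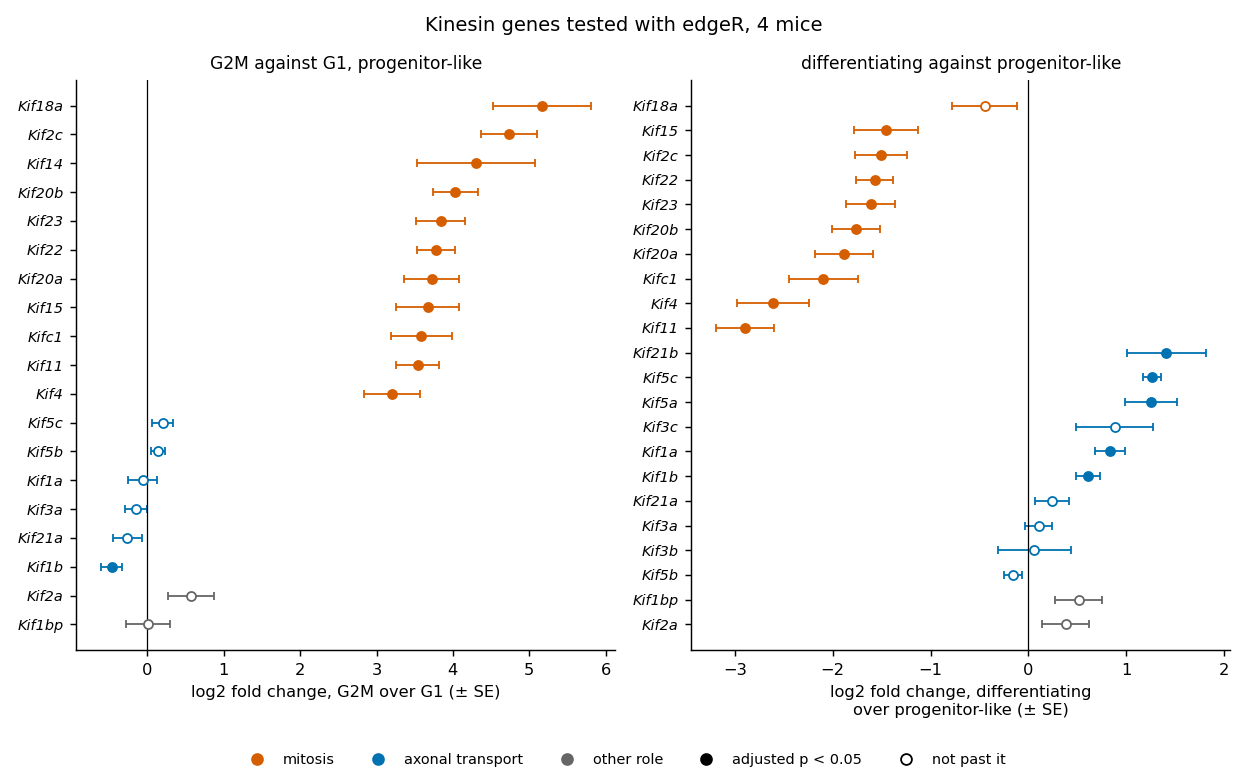
Log2 fold changes with SE (x axes) of the kinesin genes tested, G2M over G1 progenitor-like cells (left) and differentiating over progenitor-like cells (right), with colour for role and filled points for adjusted p below the threshold of 0.05. All 11 mitotic points on the left lie at 3.20 or above; on the right 9 filled mitotic points lie at -1.46 or below and 5 filled axonal transport points at 0.61 or above.

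The phase mix differs between these classes, with 256 G1, 130 S and 202 G2M cells among the differentiating ones, so G1 cells were also compared alone. Kif5c was at 386, 320, 446 and 455 CPM in G1 differentiating cells and at 104, 137, 206 and 159 CPM in G1 progenitor-like cells of mice 1 to 4. The groups did not overlap, and the change was 1.49 ± 0.16 log2 units (adjusted p = 3.79e-10, edgeR's quasi-likelihood test). Kif1a was at 106, 94.9, 167 and 90.1 CPM in G1 differentiating cells and at 70.4, 53.3, 73.0 and 57.0 CPM in G1 progenitor-like cells. It was higher in 4 of 4 mice without overlap, yet its change of 0.73 ± 0.27 log2 units missed the threshold (adjusted p = 0.0629, edgeR's quasi-likelihood test). Kif5c was thus 1 of 6 genes called, a share near the 12.7% of 3087 genes (6.32% higher and 6.38% lower), and without the filter on low counts Kif5a joined it, 2 of 12 axonal transport genes against 3.36% of 11485 genes (1.09% higher and 2.27% lower). The mitotic sum averaged 63.6 ± 36.2 CPM in G1 differentiating cells and 62.7 ± 14.1 CPM in G1 progenitor-like cells (SD, n = 4 mice), and the mice overlapped; 0 of 11 mitotic genes were called by edgeR without the filter, 0 also at an unadjusted p under 0.05, and none passed the filter for DESeq2. The partners Map1b (1.70), Klc1 (1.37) and Mapt (1.30 log2 units) were higher here too, 3 of 5 transport partners tested.

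Kif5c also stood high in the other phases of the differentiating class, at 306 ± 93.5 CPM in S and 410 ± 74.6 CPM in G2M differentiating cells, against 152 ± 13.9 CPM in S and 159 ± 11.7 CPM in G2M progenitor-like cells (SD, n = 4 mice, not tested). Differentiating cells called G2M were lower in mitotic kinesins than progenitor-like cells called G2M, with sums of 306, 293, 202 and 319 CPM in differentiating cells against 842, 1016, 718 and 946 CPM in progenitor-like cells. Each mouse had 0.281 to 0.363 times the progenitor-like sum. Ccnb1 moved with them, at 112 ± 71.6 CPM in differentiating G2M cells and 409 ± 69.2 CPM in progenitor-like G2M cells, and its part in the difference was not tested.

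Glia were compared with the granule lineage, progenitor-like and differentiating cells together, to see whether the pattern extends to other cells of the tumour. Cells were not matched by phase in these comparisons, and the part of the share of cycling cells in the differences was not tested. Astroglia-like cells showed no called kinesin gene. Their mitotic sum was 193, 576, 282 and 292 CPM against 432, 501, 433 and 548 CPM in granule-lineage-like cells of mice 1 to 4, lower in 3 of 4 mice with mouse 2 the exception. The axonal transport sum was 870 ± 61.6 CPM in astroglia-like cells and 905 ± 48.0 CPM in granule-lineage-like cells (SD, n = 4 mice). Kif1a was at 96.3, 102, 103 and 97.3 CPM in astroglia-like cells and at 60.8, 63.0, 73.6 and 72.5 CPM in granule-lineage-like cells. It did not overlap, but its 0.64 ± 0.25 log2 units did not pass the test (adjusted p = 0.249, edgeR's quasi-likelihood test). Kif5c was at 148 ± 13.6 CPM in astroglia-like cells and 184 ± 21.02 CPM in granule-lineage-like cells, Kif4 at 29.7 ± 15.6 CPM in astroglia-like cells and 35.9 ± 8.34 CPM in granule-lineage-like cells, and Kif20a at 24.0 ± 21.02 CPM in astroglia-like cells and 36.9 ± 15.1 CPM in granule-lineage-like cells.

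edgeR called 0 of 20 genes tested in the astroglia-like comparison, against 1.10% of 6435 genes (0.746% higher and 0.357% lower), with 2 genes higher and 2 lower at an unadjusted p under 0.05, and DESeq2 called 0, with 1 higher at an unadjusted p under 0.05. Without the filter it called 0 of 41, with 1 higher and 5 lower at an unadjusted p under 0.05, against 0.345% of 13350 genes (0.180% higher and 0.165% lower). Among the partners Cenpe, a mitotic motor, was lower (-0.88 ± 0.25 log2 units, adjusted p = 0.0492, edgeR's quasi-likelihood test), 1 of 13 mitotic partners tested. In simulated counts of this comparison, with 6526 genes tested, 48.5% of genes changed by 1 log2 unit and 80.2% of those changed by 2 were recovered, so differences of the size of Kif1a's could be missed. The astroglia-like class came from 16 to 97 cells per mouse. Its clusters held 14.3 to 24.5 UMIs of granule progenitor markers per 10000. This was close to the 17.5 to 34.0 of progenitor-like clusters and above the 6.44 of myeloid-like cells. Astroglia markers were at 39.6 to 231 UMIs per 10000 in them, against 5.74 to 9.52 in progenitor-like clusters. The myeloid-like cluster was at 326 for the same astroglia markers, so this sum is not particular to astroglia-like cells. Mature granule markers were at 0.138 to 0.354 UMIs per 10000 in the astroglia-like clusters. The part of granule-lineage RNA or of doublets in the kinesin values of the glia was not tested.

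In oligodendrocyte-lineage-like cells the transport genes Kif21b and Kif1a were called higher and the mitotic gene Kif20b lower. These were 3 of 22 genes tested, a share near the 12.5% called among all 6587 genes (5.91% higher and 6.57% lower), so the count itself is no result about kinesins. Kif21b was at 66.5, 35.1, 54.8 and 49.3 CPM in oligodendrocyte-lineage-like cells and at 6.91, 10.3, 9.39 and 7.29 CPM in granule-lineage-like cells of mice 1 to 4. The groups lay far apart, although the higher values rest on 17 UMIs. The change was 2.52 ± 0.52 log2 units (adjusted p = 0.000151, edgeR's quasi-likelihood test), called in all 12 of its alternatives at 2.29 to 2.75. Kif21b could pass the filter on low counts through the oligodendrocyte-lineage-like cells alone, so its filtered test was tied to the class where it is high. Without the filter it was higher by 2.30 ± 0.54 log2 units (adjusted p = 0.000798, edgeR's quasi-likelihood test). Kif1a was at 177, 141, 192 and 98.7 CPM in oligodendrocyte-lineage-like cells and at 60.8, 63.0, 73.6 and 72.5 CPM in granule-lineage-like cells. It did not overlap and changed by 0.95 ± 0.30 log2 units (adjusted p = 0.0201, edgeR's quasi-likelihood test), with the call lost in 5 of 13 alternatives. Kif20b was at 0, 0, 0 and 38.4 CPM in oligodendrocyte-lineage-like cells and at 49.4, 59.2, 69.6 and 66.6 CPM in granule-lineage-like cells. All of its 7 UMIs in the glial class came from mouse 4, the change was -1.75 ± 0.52 log2 units (adjusted p = 0.0139, edgeR's quasi-likelihood test), and the call was lost in 4 of 12 alternatives. Kif20b could pass the filter through the granule-lineage-like cells alone. Without the filter its change was -1.96 ± 0.51 log2 units (adjusted p = 0.0034, edgeR's quasi-likelihood test).

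The median of all genes in this comparison was -0.14 log2 units. Kif5c was at 118 ± 41.7 CPM in oligodendrocyte-lineage-like cells and 184 ± 21.02 CPM in granule-lineage-like cells. It was lower in 4 of 4 mice without overlap, but the gap was narrow, from 155.2 to 157.5 CPM. The lower values rest on 7, 7, 3 and 28 UMIs in mice 1 to 4. The change of -0.66 ± 0.28 log2 units did not pass the test (adjusted p = 0.103, edgeR's quasi-likelihood test). Kif4 (-1.34 ± 0.63), Kif20a (-0.36 ± 0.49) and Kif11 (-0.24 ± 0.39) did not pass it either. Without the filter on low counts Kif5c, Kif5b, Kif22 and Kif23 were called lower too and Kifc3 higher, against 8.67% of 13375 genes (3.29% higher and 5.38% lower) and a median of all genes of -0.52 log2 units. The mitotic sum was 133, 117, 219 and 466 CPM in oligodendrocyte-lineage-like cells and 432, 501, 433 and 548 CPM in granule-lineage-like cells. Mouse 4, which gave 34 of the 37 oligodendrocyte-like cells, was the highest. Mapt (1.43 log2 units) and the kinesin adaptor Hap1 (2.47) were the called ones among 13 tested transport partners, both higher, and Aurkb (-1.57) and the mitotic motor Cenpe (-1.10) among 14 mitotic partners, both lower. Recovery in simulated counts of this comparison, with 6421 genes tested, was 21.7% at 1 log2 unit and 78.4% at 2. Of the genes called in these simulated counts 8.57% were false, above the share that the threshold allows. In the other comparisons this share was 3.12 to 5.56%. Each share comes from 1 simulated draw, with 1 dispersion for all genes and no differences between mice other than depth. These shares therefore do not measure the error rate of the real calls. Whether the calls of Kif1a and Kif20b here are less certain than their adjusted p-values state was not tested.

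**Figure D5:**
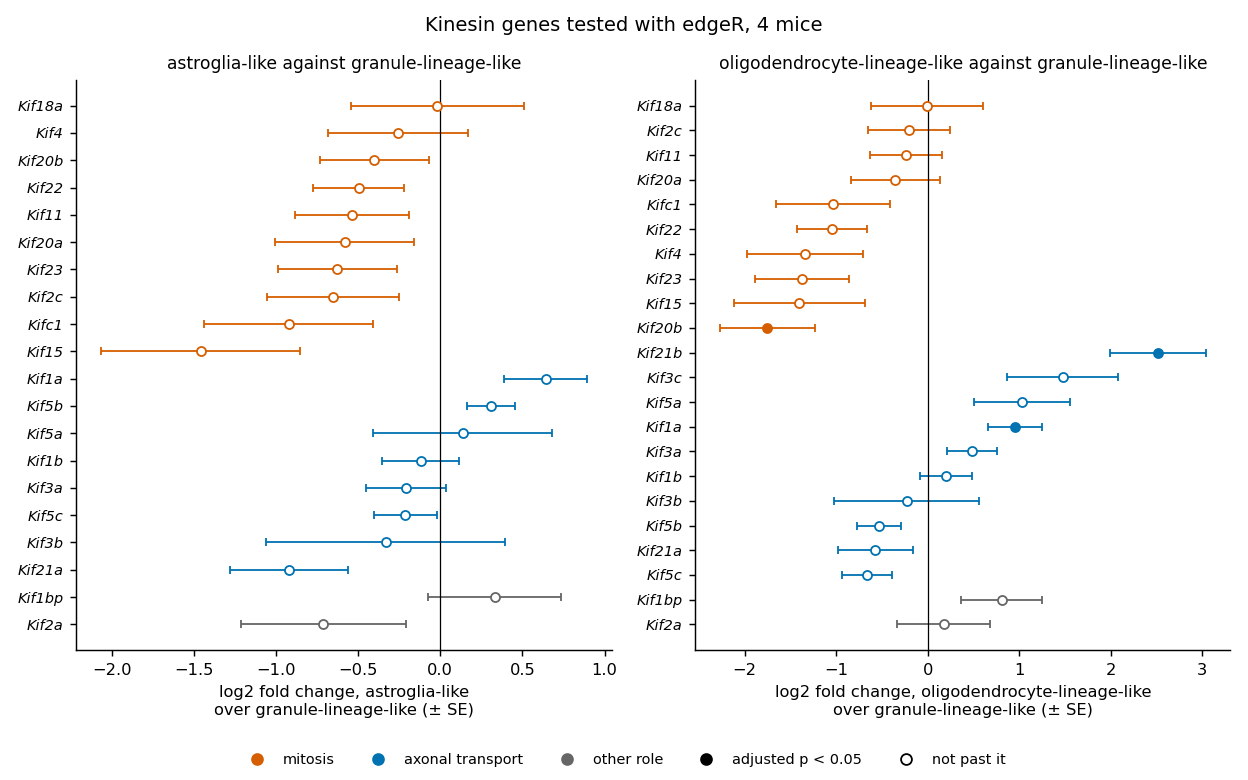
Log2 fold changes with SE (x axes, different ranges) of the kinesin genes tested, astroglia-like over granule-lineage-like cells (left) and oligodendrocyte-lineage-like over granule-lineage-like cells (right), with colour for role and filled points for adjusted p below the threshold of 0.05. No point is filled on the left; Kif21b at 2.52, Kif1a at 0.95 and Kif20b at -1.75 are filled on the right.

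Myeloid-like cells, 5 to 14 per mouse, were too few to test. Kif4, Kif11 and Kif20a had 0 UMIs there among 66727 UMIs in all, and Kif5c had 1 UMI. The axonal transport sum was 269, 0, 240 and 443 CPM in myeloid-like cells of mice 1 to 4.

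Of the genes not yet described, Kif2a drew 332 UMIs over all barcodes and the others 106 or fewer. Kif2a, a depolymerase that limits axon branches, was at 30.3 ± 3.17 CPM in G2M cells and 18.8 ± 4.80 CPM in G1 cells (SD, n = 4 mice), higher in 4 of 4 mice and not called (0.57 ± 0.30 log2 units, adjusted p = 0.223, edgeR's quasi-likelihood test). Kifc5b had 52 UMIs in G2M cells and 2 UMIs in G1 cells, and without the filter on low counts it was higher by 2.87 ± 0.74 log2 units, with the limit that reads of its near copy Kifc1 could be counted there. Kif7, which regulates Gli factors at the tip of the cilium in hedgehog signalling, had 18 UMIs over all barcodes, 13 of them in progenitor-like and 2 in differentiating cells, and Kif27, its close relative, had 1. Kif24, which depolymerises microtubules at centrioles, had 18, and Kif9, Kif19a and Kif6 had 5, 4 and 3. Of the other transport genes, Kif13a, a motor of recycling endosomes, had 106 UMIs, Kif16b 54, Kifc3 47, Kif13b 37 and Kif1c 29, and 0 of these 5 passed the filter on low counts in any of the 7 comparisons. Kif17, Kif26b, Kif26a, Kifc2 and Kif16bos had 4, 4, 5, 10 and 1 UMIs, so no difference was detectable at this depth.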

How the data were processed

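Single-cell RNA was measured in tumours of 4 mice (1 group). The authors deposited raw UMI counts for every gene in every barcode; the submitters' processing notes name Cell Ranger 2.0.2, Seurat and, as build, mm10. The study states 4749 cells; the files hold 5670 barcodes, of which 4620 had at least 500 genes and 4137 also at most 10% mitochondrial UMIs. Scrublet (expected rate 2%) marked 15 cells (0.363%) and is taken not to have worked; these were removed, other doublets remain, and 4122 cells were analysed. Library pairs shared 1 to 5 barcodes.

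Clustering used scanpy 1.11.5 with leidenalg 0.10.2 under Python 3.11.15: counts per 10000, 2000 variable genes, 30 components, 15 neighbours, Leiden resolution 1. A cluster was named by at least 3 markers raised by 1 log2 unit and detected in 10% of its cells, and called differentiating where the median of those markers was 0.5 log2 units above the lineage mean and above that of progenitor markers. The second clustering and these limits were chosen after seeing the data. Counts were summed per mouse and class (at least 10 cells) and tested with edgeR 4.0.16 (R 4.3.3; TMM, filterByExpr, quasi-likelihood test, Benjamini-Hochberg adjustment, threshold 0.05), with the mouse as a block because both classes come from the same animal (correlations of same-mouse deviations 0.106 to 0.687). The fit used all genes; p-values were adjusted over genes used neither for clustering nor for phases or class names. Because the same cells defined the classes, calls describe those classes. The code was tested on simulated data. DESeq2 1.42.0 was an alternative. CPM are counts per 1000000 UMIs of the class and are not scaled by gene length, so levels of different genes are not compared. Libraries held 1679285 to 3801197 UMIs; intervals and floors cover counting error only.

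Full values are given for Kif4, Kif11, Kif20a, Kif5c and members past the threshold, up to 12 each way. Members, roles, lists and tests were chosen with earlier results of these data known. No p is given for shares or sums over members; a sign-flip test over 4 mice cannot go below 0.125.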

Additional observations from a re-analysis of the deposited data

Results flagged for a closer look

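Kif11 in astroglia-like cells was at 140.7 CPM in mouse 2, from 11 UMIs, against 0 to 20.63 CPM in the other 3 mice. This mouse lies farther from the others than Dixon's 95% limit for 4 samples allows. It was the 1 flagged of 48 values checked, and chance alone flags about 1 in 20 such groups. Checked were the levels of Kif4, Kif11, Kif20a and Kif5c and the summed levels of the mitotic and of the axonal transport genes. The classes were the progenitor-like class, its phases, and the differentiating, astroglia-like, oligodendrocyte-lineage-like and granule-lineage-like classes. Kif4, at 51.2 CPM, and Ccnb1, at 230 CPM, were also highest in the astroglia-like cells of mouse 2.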

How the results depend on the processing

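Counts of called kinesin genes moved by over 1.5 times as follows, and the cause was not tested. In G2M against G1 cells 1 gene was lower (Kif1b), and 0 were with DESeq2, no filter on low counts, no replicate block or cells away from phase boundaries (0 to 1 leaving out a mouse, 0 without mouse 1 or mouse 4). The count stayed at 1 with no mitochondrial limit or with phases from thinned cells, but the gene was not Kif1b. In S against G1 cells 1 gene was higher, and 0 were with DESeq2 or cells away from boundaries, 2 with phases from thinned cells, 3 with no mitochondrial limit or Leiden resolution 0.7, and 5 with no filter or 1 fit over all classes (0 to 3 leaving out a mouse); 1 was lower (Kif3a), and 0 were with DESeq2, no filter, no replicate block, 1 fit, thinned phases or cells away from boundaries (0 to 1). In differentiating against progenitor-like cells 5 were higher, and 3 with 1 fit over all classes. In G1 cells alone 1 was higher, and 2 with no filter, no mitochondrial limit or 1 fit (1 to 2 leaving out a mouse). In oligodendrocyte-lineage-like cells 2 were higher, 1 with DESeq2 and 4 with no mitochondrial limit (1 to 2); 1 was lower, 0 with DESeq2, no replicate block or 1 fit, 2 with RLE normalization, without cells low in Malat1 or at Leiden 0.7, 3 in the precursor-like cluster and 5 with no filter or no mitochondrial limit (0 to 4).

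Shares of cells with a mitotic UMI differed by 39.6 percentage points for G2M minus G1 cells (45.7 unthinned, 55.5 at 2000 UMIs), -15.3 for differentiating minus progenitor-like cells (-19.9 and -22.5) and -12.5 for oligodendrocyte-lineage-like minus granule-lineage-like cells (-19.4 and -19.8). For axonal transport, G2M minus G1 was -3.99 and 2.20 at 2000 UMIs, astroglia-like minus granule-lineage-like 2.50 and -4.67 unthinned, and oligodendrocyte-lineage-like minus granule-lineage-like 10.0 (-2.13 unthinned, -2.56 at 2000 UMIs), so no direction is drawn from these 3.

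Genes that changed sign were not called. Kif5c in G2M against G1 went to -0.091 with no mitochondrial limit and -0.0075 with thinned phases, and in S against G1 to -0.13, -0.018 at Leiden 0.7, -0.14 with thinned phases (-0.053 to 0.18 leaving out a mouse, the lowest without mouse 1). Kif11 in astroglia-like cells was 0.059 without mouse 4 and -1.57 without mouse 2, against -0.54. Kif20a in oligodendrocyte-lineage-like cells was 0.067 in the precursor-like cluster and 0.0073 without mouse 2 (-1.14 to 0.0073 leaving out a mouse). Of the values for single genes, 658 kept direction and call, 40 lost the call, 3 gained it and 9 changed sign. Phase margins and glial subclusters were chosen after seeing the data. Glial classes of 16 to 97 cells per mouse limit what can be detected.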
